A study of Mus musculus with 12 samples.

Results

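The report covers 243 array probe sets that the platform annotation assigns to 2 or more mouse genes at once and whose level varied between the 4 groups of cells. A probe set was kept when the highest of its 4 group means lay at least 1 above the lowest on the log2 scale, which is a 2-fold difference. The deposited table holds 10360 probe sets, of which 344 carry several gene symbols, and 243 of those 344 (70.6%) passed. Among the 9542 probe sets with 1 symbol, 70.5% passed the same minimum, so sharing a probe set did not go with a different share of varying features. The group means chose the members, so every difference of a member is given below as a description with no test. A shared probe set returns 1 value for all of its genes, and that value cannot be divided among them.

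The study asked how cells reprogrammed with the factors Oct4 and Tet1 compare with fibroblasts and embryonic stem cells. The 12 arrays hold 3 of each group. Fibroblasts at passage 3 came from a background that the labels write as OG2-GFP/Rosa26-M2rtTA, with M3rtTA and M4rtTA in its place on the other two arrays. Day-1 cells were passage 3 fibroblasts of mice made from OT-iPSC, in the first of these backgrounds, kept for 1 day with doxycycline in ES medium. The iPS cells were 1 line, OT#b, at passage 10, of the same background. The R1 line, of strain 129 and at passage 20, supplied the ES cells. Both pluripotent lines grew on growth-arrested feeder fibroblasts with LIF, and a short plating step to remove feeders is described for ES cells. Day-1 cells differ from fibroblasts in mouse of origin, medium and doxycycline together, and iPS differ from ES cells in line, strain and passage together, so these cannot be told apart. Nothing in the labels tells whether replicate arrays stem from different cultures, so each p-value below measures only the spread between arrays, which may be technical.

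Gene families that arose by duplication often hold copies so alike that one short probe matches several of them. Such families include the histone clusters, the zinc finger repressors, the interferon-inducible GTPases, the class I histocompatibility genes and the genes switched on in germ cells or at the first cleavage of the embryo. Other shared probe sets pair a gene with its processed pseudogenes, as for ribosomal proteins, or a small RNA with the transcript that hosts it. The 243 members carry 717 symbols in 224 distinct lists. Of the members, 139 have 2 symbols and 24 have 10 or more, up to 19 for a probe set of H2A histone genes. All located symbols of a member lie on 1 chromosome for 155 members and on several for 85, and 3 members have fewer than 2 located symbols.

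The labelled cell types were checked against markers with probe sets of their own. The mean of 8 pluripotency genes was 5.26 to 5.59 in fibroblasts, 6.25 to 6.38 in day-1 cells, 11.43 to 11.47 in iPS cells and 11.80 to 11.86 in ES cells. The mean of 9 fibroblast genes was 11.30 to 11.60, 10.90 to 11.00, 8.46 to 8.59 and 7.92 to 8.29 in the same order. Of the 9, limma called 6 lower in iPS and 9 lower in ES cells than in fibroblasts. The other 3, Col1a1, Col1a2 and Col3a1, differed from fibroblasts by 0.26, 0.19 and -0.39 in iPS cells. In iPS minus ES cells these 3 were called higher, at 2.42, 2.60 and 1.55, and Dcn lower, at -2.08. The part of feeder fibroblasts in these values was not tested. The probe set of Pou5f1, which encodes Oct4, read 4.96, 5.24 and 4.91 on the fibroblast arrays and 11.85, 11.73 and 11.81 on the day-1 arrays. That of Tet1 read 6.59, 6.57 and 6.87 in fibroblasts and 7.47, 7.47 and 7.45 in day-1 cells. The factors named in the labels were thus higher on all 3 day-1 arrays than on any fibroblast array.

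One array stood apart from the other two of its group in ways that touch the results. ES array 2 lay over 1 from both other ES arrays at 47 of the 10360 probe sets, against 1 to 23 for each of the other 11 arrays. It was the higher one at 44 of the 47. At 11 of the 243 members it stood apart this far, higher at 10 of them. These 10 include the Zscan4 genes, 2 lists of Gm4340 models and the BB287469 genes, all of the two-cell stage, beside Oas1a with Oas1g and the H2-T genes. The means of the marker lists on ES arrays 1, 2 and 3 were 5.94, 6.59 and 5.86 for interferon response genes. They were 7.93, 8.29 and 7.92 for fibroblast genes and 11.80, 11.86 and 11.84 for pluripotency genes. The interferon and fibroblast lists were thus higher on the array on which the two-cell genes were higher, and their part in it was not tested. Differences at the members named here, and several of the family counts that moved with it, are given with and without this array. At the H2-T genes, ES minus fibroblast was -5.62 with it and -6.11 without it. At the Gm4340 list not described below, iPS minus ES was 0.91 with it and 1.28 without it. Over all members, 105 rather than 108 were at least 1 higher in ES cells than in fibroblasts without it, and 75 rather than 73 lower. Between iPS and ES cells 25 rather than 20 were then higher in iPS cells and 17 rather than 19 lower.

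Sequences are shown first for the small RNAs, whose probe sets also list other symbols, often the host, so the value cannot be assigned to the miRNA. Of 25 miRNA symbols among the members, 11 matched the RefSeq table (GRCm38.p6), with 16 different mature sequences and as many different seeds. Among these matched miRNAs a seed is shared only by Mir3084-1 and Mir3084-2, whose mature sequences are the same, and the seeds of the other 14 symbols were not compared. In the lines that follow, U is as RefSeq writes the RNA, and the capitals mark the seed, bases 2 to 8, which pairs with target messages.
mmu-miR-92a-3p: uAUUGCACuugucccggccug
mmu-miR-22-3p: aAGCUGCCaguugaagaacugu
mmu-miR-675-5p: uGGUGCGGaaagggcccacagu
mmu-miR-410-3p: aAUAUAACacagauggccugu
mmu-miR-27b-3p: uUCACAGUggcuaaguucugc
mmu-miR-23b-5p: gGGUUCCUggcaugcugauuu
mmu-miR-3084-3p: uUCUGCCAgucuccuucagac
The first lies at chr14:115044476-115044496 (+), in the cluster whose host is Mir17hg. The next is at chr11:75463772-75463793 (+), in Mir22hg, and miR-675-5p is at chr7:142577112-142577133 (-). The miR-410 arm is at chr12:109743764-109743784 (+). The miR-27b and miR-23b arms are at chr13:63300760-63300780 (+) and chr13:63300492-63300512 (+), within the same host, Aopep. The miR-3084 arm has identical copies at chr19:24942240-24942260 (-) and chr19:60774334-60774354 (-), for Mir3084-1 and Mir3084-2.

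Promoters show how alike the copies behind one probe set can be. RefSeq gives a promoter of 300 bases, 250 before and 50 after the start, for 484 of the 717 symbols. For 127 symbol lists at least a pair of promoters could be aligned: the best pair was at least 90% identical in 47 lists and under 60% identical in 49. The Zscan4 genes, which encode zinc finger proteins of the two-cell embryo, are printed here for the 250 bases before the start, with capitals where the copies do not align or differ. Zscan4c is at chr7:11005495-11005744 (+) and Zscan4f at chr7:11397665-11397914 (+), and 226 bases are identical, in a window shifted between the copies.
Zscan4c: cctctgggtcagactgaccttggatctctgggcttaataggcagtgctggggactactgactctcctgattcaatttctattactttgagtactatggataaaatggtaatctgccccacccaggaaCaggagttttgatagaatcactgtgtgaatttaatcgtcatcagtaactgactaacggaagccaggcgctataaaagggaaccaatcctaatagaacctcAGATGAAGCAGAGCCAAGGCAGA
Zscan4f: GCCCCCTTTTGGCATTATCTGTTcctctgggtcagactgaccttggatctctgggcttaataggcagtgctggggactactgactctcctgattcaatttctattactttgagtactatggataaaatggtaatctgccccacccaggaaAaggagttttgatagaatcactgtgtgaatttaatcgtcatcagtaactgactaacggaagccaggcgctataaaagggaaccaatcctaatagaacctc
The Gm4340 models of chromosome 10 go further. The same 250 bases lie before Gm4340 at chr10:104193792-104194041 (+) and before Gm21312 at chr10:104176774-104177023 (+), and all 250 are identical, so 1 copy is shown.
Gm4340: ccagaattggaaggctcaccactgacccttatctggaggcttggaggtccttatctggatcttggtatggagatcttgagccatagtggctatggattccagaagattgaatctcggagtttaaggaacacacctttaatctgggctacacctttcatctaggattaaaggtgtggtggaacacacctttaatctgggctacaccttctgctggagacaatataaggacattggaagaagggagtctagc

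The 243 members differed by a median of 1.78 between their highest and lowest group means, and by up to 7.62. The median SD within a group of 3 arrays was 0.12, against 0.10 over all probe sets. In 239 of the 243, no array of the highest group overlapped any array of the lowest. The minimum range that chose the members is wide beside a median SD of 0.12, so such separation was likely beforehand. The share of other probe sets without overlap was not counted, so nothing is read from this figure. The highest mean was in ES cells for 78 members, in fibroblasts for 67, in iPS cells for 66 and in day-1 cells for 32. The lowest was in fibroblasts for 87, in day-1 cells for 64, in ES cells for 52 and in iPS cells for 40. Among the 6724 single-symbol probe sets past the same minimum, 15.5% were highest in iPS cells, against 27.2% of the members, and 13.5% were lowest in day-1 cells, against 26.3%. At the other end, 37.2% of the single-symbol probe sets and 21.4% of the members were lowest in ES cells. These shares are a description, since copies within a family are not independent.

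**Figure D1:**
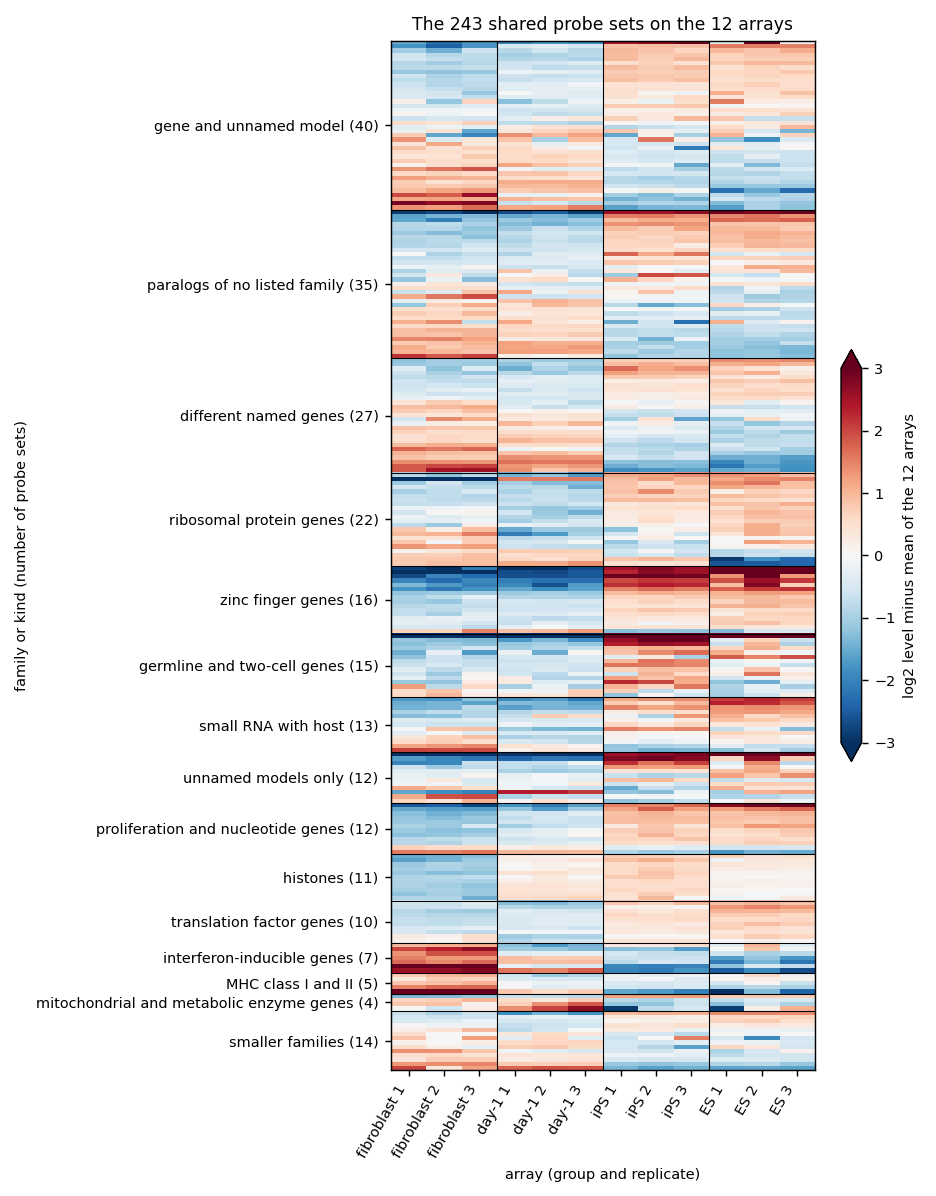
Log2 level of each of the 243 shared probe sets minus its own mean over the 12 arrays (colour), with probe sets in rows grouped by family and arrays in columns. Histone probe sets are low only on the 3 fibroblast arrays, interferon-inducible and histocompatibility ones are high there, and most zinc finger ones are high on the 6 iPS and ES arrays.

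Counted by comparison, 19 members were at least 1 higher and 36 at least 1 lower in day-1 cells than in fibroblasts, where 3.52% and 4.59% of all probe sets passed the same differences. In iPS cells 105 were higher and 69 lower than in fibroblasts (22.2% and 29% of all). In ES cells 108 were higher and 73 lower (23.8% and 31.5%). Against day-1 cells, 92 were higher and 54 lower in iPS cells (18% and 26%), and 102 higher and 51 lower in ES cells (20.9% and 28.7%). Between the pluripotent lines, 20 were higher and 19 lower in iPS than in ES cells (4.47% and 2.63%). Members were selected on these very means, so nothing is read from how they compare with the background. The median member difference from fibroblasts was 0.65 in iPS and 0.86 in ES cells, whereas the median over all probe sets was -0.31 and -0.30. The scaling of the arrays bears on that last value: after quantile normalization it was -0.16 and -0.10, and with arrays centred on 1 median -0.07 and 0.03. Of the limma calls over all probe sets in iPS against fibroblasts, 43.3% were higher as deposited, 51.6% after quantile normalization and 56.3% after centring. In ES cells the shares were 43%, 52.8% and 58.9%, and between iPS and ES cells 63.1%, 56.5% and 51.3%. None of the 748 member differences past 1 changed direction under either scaling, which their size made likely beforehand.

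**Figure D2:**
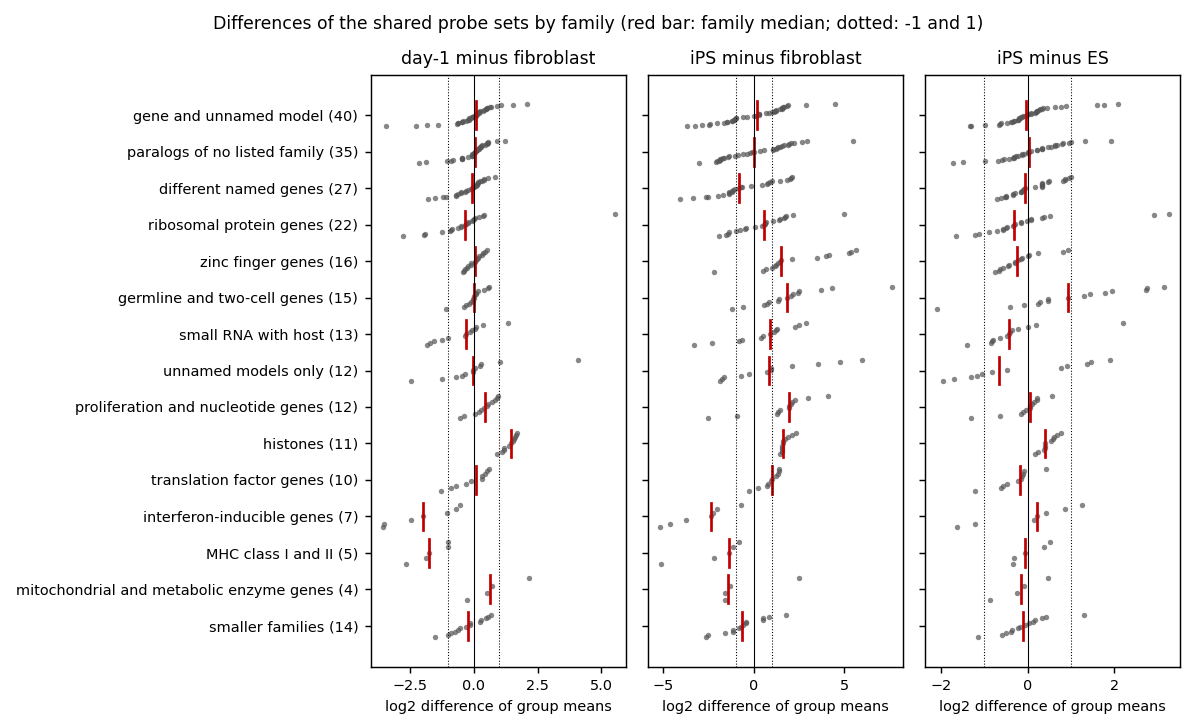
Log2 differences of group means (x axis) of the shared probe sets, one grey point each, by family (y axis, number of probe sets in brackets), in 3 comparisons, with the family median as a red bar. The histone median is 1.47 at day 1, the interferon-inducible median is -2.00 there, and the germline and two-cell family has the highest median in iPS minus ES cells among the families drawn, 0.94.

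Shared zinc finger probe sets were mostly higher in the pluripotent lines. Of 16 probe sets, 13 were at least 1 higher in iPS cells than in fibroblasts and 13 in ES cells (14 without ES array 2), with 1 lower in each and none past 1 in day-1 cells. Many of these genes encode KRAB zinc finger proteins, which bind and silence transposon sequences, and the group on mouse chromosome 4 includes Rex2, Zfp981 and Zfp980. Their shared probe set read 5.75, 6.01 and 6.10 in fibroblasts, 6.43, 6.38 and 6.57 in day-1 cells, 11.37, 11.79 and 11.64 in iPS cells, and 12.07, 12.50 and 12.50 in ES cells. Every iPS and ES array lay above every fibroblast and day-1 array, and the difference from fibroblasts was 5.64 in iPS and 6.41 in ES cells. A neighbouring list that opens with Zfp990 and Zfp534 read 5.89, 5.32 and 6.59 in fibroblasts, 11.21, 11.47 and 11.25 in iPS cells, and 11.76, 12.12 and 11.94 in ES cells. The list of EU599041, Zfp936, Zfp975 and Zfp976 had means of 5.84 and 5.73 in fibroblasts and day-1 cells, and was 4.16 and 4.29 higher in iPS and ES cells than in fibroblasts. One list went the other way: the probe set of Gm10509, Zfp983 and Zfp51 was 2.17 lower in iPS and 1.74 lower in ES cells.

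The 5 Zscan4 genes a, b, c, d and f share 2 of these probe sets. Zscan4 protein marks the short state in which a few cells of a pluripotent culture resemble the two-cell embryo. The first probe set read 5.36, 6.10 and 5.74 in fibroblasts and 5.44, 5.44 and 5.51 in day-1 cells. It read 11.02, 11.02 and 10.98 in iPS cells and 9.42, 11.50 and 9.34 in ES cells. ES array 2 lies above all 3 iPS arrays, and ES arrays 1 and 3 lie below them. The second read 9.45, 9.58 and 9.52 in iPS and 8.15, 10.01 and 7.94 in ES cells, with ES array 2 again the high one. The iPS minus ES difference was 0.92 and 0.82 with all arrays, and 1.62 and 1.48 without ES array 2. In bulk RNA, fewer cells in such a state and less RNA per cell cannot be told apart, here or in any result below.

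Zinc finger genes with a probe set of their own were not chosen by the rule and could be tested. They were not mostly higher: their median difference from fibroblasts was -0.04 in iPS and 0.14 in ES cells. The 16 shared probe sets, selected for varying, had medians of 1.48 and 1.77. Of 269, limma called 64 higher and 57 lower in iPS cells than in fibroblasts, where 22.2% and 29% of all probe sets were called, and 65 higher and 47 lower in ES cells (23.8% and 31.5%). At day 1 it called 0 higher and 3 lower, Zfp36l1, Zfpm2 and Zfp52 (3.49% and 4.58%); the call of Zfp52 ended under 2 of 18 alternative settings. At an unadjusted p under 0.05 limma had 55 higher and 69 lower there. The largest rise in both lines was that of Zfp980, by 6.50 ± 0.21 (SE) in iPS and 7.52 ± 0.21 in ES cells (limma, adjusted p = 1.5e-11 and 3.1e-12). Zfp640 rose by 7.49 ± 0.10 in ES cells (limma, adjusted p = 2e-14). Zfp600 and Zfp979, which also take part in the Rex2 probe set, rose by 5.55 ± 0.19 and 4.64 ± 0.16 in iPS cells (limma, adjusted p = 2.4e-11 and 2.3e-11). Zfp521, a regulator of lineage choice, fell by 3.35 in iPS cells, and Zfp42, the pluripotency gene also called Rex1, rose by 6.92 in ES cells but by 4.14 in iPS cells. The Zfp42 difference between the pluripotent lines, -2.77 ± 0.16 in iPS minus ES cells, was called by limma (adjusted p = 8.8e-08).

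**Figure D3:**
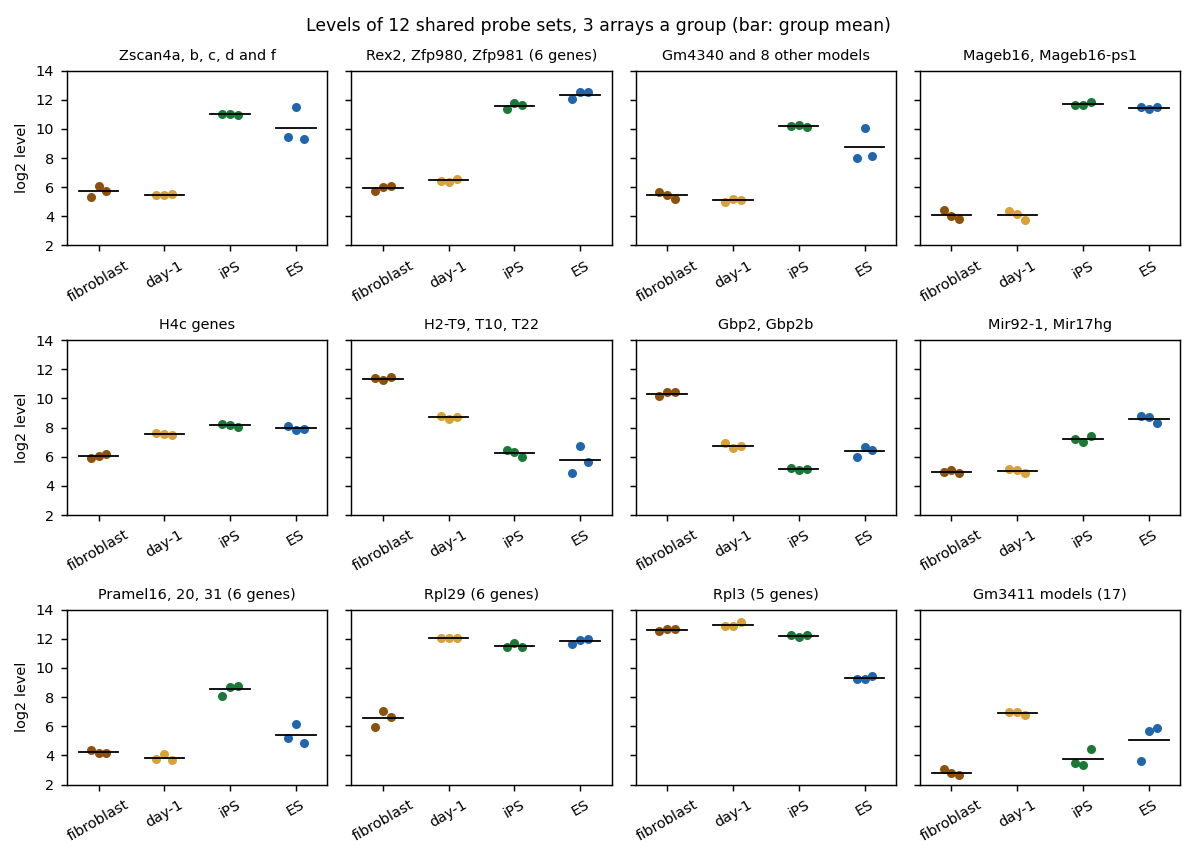
Log2 level (y axis) of 12 shared probe sets on the 3 arrays of each group (points; bars are group means), with a panel per probe set. In the Zscan4 and Gm4340 panels 1 ES array lies near the iPS arrays and the others lower, at 11.50 against 9.42 and 9.34 and at 10.04 against 7.99 and 8.15.

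Germline and two-cell genes were highest in iPS cells at 11 of 15 probe sets. Of the 15, 10 were at least 1 higher and 1 lower in iPS cells than in fibroblasts, 6 higher and 3 lower in ES cells, and 0 higher and 1 lower at day 1. Without ES array 2, 4 were higher and 3 lower in ES cells than in fibroblasts, and the family's median difference was 0.52, against 0.86 with it. Against ES cells, 7 were at least 1 higher and 1 lower in iPS cells, and the counts for iPS against ES cells were the same without ES array 2. The member with the widest range of all was Mageb16 with its pseudogene Mageb16-ps1, an X-linked gene of the MAGE family best known from the testis. It read 4.44, 4.04 and 3.81 in fibroblasts, 4.37, 4.13 and 3.77 in day-1 cells, 11.64, 11.63 and 11.87 in iPS cells, and 11.47, 11.34 and 11.47 in ES cells. The pluripotent lines were 7.61 and 7.33 above fibroblasts, and differed by 0.28 from each other.

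Pramel genes, leucine-rich repeat proteins of oocytes and early embryos, set the pluripotent lines apart. A list with Pramel16, Pramel20 and Pramel31 has 2 probe sets. The first read 4.35, 4.19 and 4.16 in fibroblasts, 3.77, 4.13 and 3.66 in day-1 cells, 8.11, 8.72 and 8.76 in iPS cells, and 5.17, 6.16 and 4.83 in ES cells. No iPS array overlapped an ES array, and the difference between the lines was 3.14, or 3.53 without ES array 2. Against fibroblasts the ES cells were 1.15 higher with that array and 0.77 without it. The second gave 2.73, or 3.33 without ES array 2, which read 6.36 there against 4.68 and 4.44. A list of Pramel50, Pramel37, Pramel39 and BC080696 had means of 7.03 in iPS and 5.08 in ES cells, and 4.87 in fibroblasts.

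The Xlr genes of the X chromosome, relatives of a meiotic chromosome protein, behaved alike. Xlr4a, Xlr4b and Xlr4c read 7.0, 6.74 and 5.82 in iPS cells and 3.58, 3.27 and 4.45 in ES cells. Fibroblasts read 3.59, 3.58 and 4.99, so iPS cells alone were clear of the rest. The 2 probe sets of Xlr3a, Xlr3b and Xlr3c were 1.44 and 1.29 higher in iPS than in ES cells. The list of Sly and Gm20871, spermatid genes of the Y chromosome, went the other way: it read 7.34, 7.96 and 6.71 in iPS and 9.51, 9.18 and 9.60 in ES cells. A further probe set that opens with the same symbols differed by -0.41 in iPS minus ES cells, and by 0.03 without ES array 2. Outside this family, the list of Gm20831 and Ssty1 was 0.88 higher in iPS cells. The 2 probe sets that open with Gm20917 were 1.59 and 0.63 higher.

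Single-gene relatives of this family have probe sets that the selection did not use, so they could be tested. Some of these genes, among them Usp17ld, Usp17lc and Pramel20, are also symbols of member lists, so their tests are not independent of the members. Of 40 genes matched by name, limma called 18 higher and 4 lower in iPS cells than in fibroblasts (22.2% and 29% of all probe sets). It called 13 higher and 5 lower in ES cells (23.8% and 31.5%). At day 1 it called 0 in either direction, where 3.49% and 4.58% of all probe sets were called higher and lower. At an unadjusted p under 0.05, limma had 8 higher and 6 lower at day 1. Between the pluripotent lines it called 7 higher and 0 lower in iPS cells, where 4.44% and 2.6% of all probe sets were called, and had 7 lower at an unadjusted p under 0.05. The 7 were Usp17ld (4.54 ± 0.18 SE; limma, adjusted p = 6.3e-09), Obox6 (3.59 ± 0.18; 2.7e-08), Nlrp4f (3.58 ± 0.10; 5.9e-10), Pramel20 (2.4), Pramel7 (1.91), Pramel13 (1.31) and Usp17lc (1.01). Usp17ld and its kin encode deubiquitinating enzymes, Obox6 a homeobox protein of oocytes, and Nlrp4f a protein stored in the egg. Usp17ld read 11.56, 11.68 and 11.83 in iPS cells and 6.79, 7.61 and 7.06 in ES cells. Obox6 read 7.66, 7.58 and 7.62 against 4.30, 4.20 and 3.60. The Usp17lc call ended under 5 of the alternative settings, and the other 6 calls under none. The name pattern also took in Spint1 and Spint2, protease inhibitors of epithelia, and the noncoding RNA Dubr. They are not germline genes, and 2 of the 18 rises and 1 of the 4 falls are theirs.

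Unnamed gene models, symbols that open with LOC or with Gm and a number or that end in Rik, form 12 probe sets of their own. The list of Gm31714 and Gm10324 read 3.97, 4.03 and 4.19 in fibroblasts, 9.91, 10.01 and 10.14 in iPS cells, and 10.74, 10.97 and 10.85 in ES cells. The 9 models that include Gm4340 and Gm21312, whose shared promoter is printed above, read 5.68, 5.43 and 5.21 in fibroblasts and 4.96, 5.22 and 5.14 in day-1 cells. They read 10.17, 10.29 and 10.13 in iPS cells and 7.99, 10.04 and 8.15 in ES cells. As with Zscan4, ES array 2 lay by the iPS arrays, and the iPS minus ES difference was 1.47 with it and 2.12 without it. Outside these 12 lie Gm4027 with BB287469, relatives of the translation factor gene Eif1a that are transcribed in two-cell embryos. They read 7.73, 7.93 and 8.13 in iPS and 4.96, 8.24 and 5.31 in ES cells. The iPS minus ES difference was 1.76 with ES array 2 and 2.79 without it.

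Gm5662, of the same Eif1a-like group, has a probe set of its own. It read 4.91, 8.20 and 4.85 on ES arrays 1, 2 and 3, the widest gap of ES array 2 among the 31 single-gene probe sets at which it was over 1 above both others. Pramel19 and Tdpoz3, also of the germline family, were among the 31 with gaps of 2.02 and 1.65. So were interferon-inducible genes such as Irgm1 (1.85) and Usp18 (1.71), and matrix genes such as Lox (1.34) and Timp3 (1.15). These genes were picked out after their values were seen.

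A list of 17 models that opens with Gm3411 was highest in day-1 cells, where few members peaked. It read 3.07, 2.77 and 2.63 in fibroblasts and 7.0, 7.0 and 6.74 in day-1 cells. It read 3.45, 3.36 and 4.45 in iPS cells and 3.64, 5.69 and 5.85 in ES cells. The day-1 arrays were clear of all others, 4.09 above the fibroblast mean. A second probe set that shares most of these models and opens with Gm3696 was 2.10 higher at day 1, but 3 more of the group had day-1 differences of 0.68, 0.25 and -0.05.

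Histones, the proteins that package DNA and whose main genes are transcribed as cells copy it, were alike in direction. All 11 probe sets were lowest in fibroblasts, 10 were highest in iPS cells, and 10 of the 11 were at least 1 higher at day 1. In iPS cells 11 were past 1 and in ES cells 10, with none lower in any of the 3 comparisons. Over all probe sets, 3.52%, 22.2% and 23.8% were at least 1 higher in day-1, iPS and ES cells. The 11 were kept for varying, and 5 of the 16 shared histone probe sets were not kept, with ranges of 0.28 to 0.89. The 11 H4 genes read 5.93, 6.02 and 6.17 in fibroblasts, 7.66, 7.56 and 7.49 in day-1 cells, 8.22, 8.15 and 8.06 in iPS cells, and 8.12, 7.86 and 7.90 in ES cells. The fibroblast arrays lay below all 9 others by a wide margin. Across the 5 probe sets of the same 12 H3 genes, the day-1 difference ran from 1.09 to 1.60, that in iPS cells from 1.47 to 1.88, and that in ES cells from 1.06 to 1.33. A probe set of 15 symbols, mostly H2B genes, had the widest range, 8.86, 9.07 and 9.43 in fibroblasts against 11.40, 11.58 and 11.30 in iPS cells. The 19 H2A symbols differed most at day 1, by 1.68. The 11 histone members sat higher in iPS than in ES cells by 0.18 to 0.77, none past 1.

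Single-gene histone probe sets were tested with limma. Several of the genes, such as H2ac4, H2bc4 and H3c15, are symbols of member lists, so their tests are not independent of the members. Of 29, limma called 14 higher and 2 lower in day-1 cells, where 3.49% and 4.58% of all probe sets were called. It called 17 higher and 2 lower in iPS cells (22.2% and 29%), and 13 higher and 2 lower in ES cells (23.8% and 31.5%). The largest rises at day 1 were H2ac4, by 2.05 ± 0.15 (SE), and H4c6, by 1.97 ± 0.14 (limma, adjusted p = 3.6e-07 and 2.1e-07). H1f5, a linker histone, rose by 1.94 ± 0.08 at day 1 and by 3.48 in iPS cells (limma, adjusted p = 3.9e-09 and 1.6e-12). H1f1, another linker histone, rose by 3.56 and H2ax, the variant that is phosphorylated at DNA breaks, by 2.69 in iPS cells. Against these, H2bc4 fell by 1.30 ± 0.12 at day 1, by 3.78 in iPS and by 4.34 in ES cells (limma, adjusted p = 2.1e-06, 1.4e-11 and 3.1e-12). It read 12.11, 12.03 and 12.15 in fibroblasts and 7.54, 8.07 and 7.66 in ES cells, while the 2 shared H2B probe sets that list it were 1.59 and 1.65 higher at day 1. H3c15 fell at day 1, by 1.58, and H1f2 fell in iPS and ES cells, by 1.38 and 1.67.

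**Figure D4:**
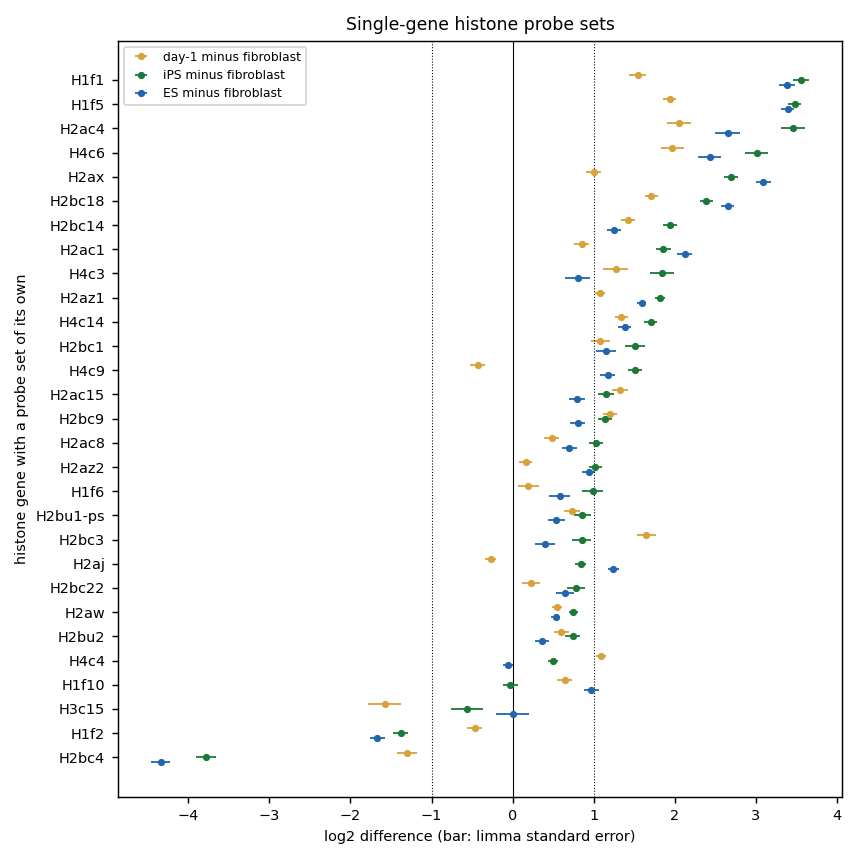
Log2 difference from fibroblasts (x axis) of the 29 histone genes with a probe set of their own (y axis), in day-1, iPS and ES cells, with limma standard errors as bars and dotted lines at -1 and 1. Most genes lie right of 0, H2ac4 at 2.05 at day 1, whereas H2bc4 lies at -1.30, -3.78 and -4.34.

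Markers of DNA synthesis and division were read beside the histones. The mean of 9 genes of S and G2/M phase was 7.85 to 8.29 in fibroblasts, 9.55 to 9.59 in day-1 cells, 10.92 to 10.94 in iPS cells and 11.05 to 11.09 in ES cells. Of the 9, limma called 8 higher at day 1, 9 in iPS and 9 in ES cells, and none lower. Their part in the histone values was not tested.

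Several proliferation and nucleotide-binding genes share probe sets with processed pseudogenes, and others with a different gene or an unnamed model. They gave 12 members, 10 of them lowest in fibroblasts. Of these 12, 10 were at least 1 higher in iPS and in ES cells, and none passed 1 at day 1. Hmgb1 with Gm5176, a chromatin protein and its copy, read 4.14, 4.26 and 3.93 in fibroblasts, 4.92, 4.55 and 5.06 in day-1 cells, 8.16, 8.13 and 8.41 in iPS cells, and 9.44, 9.60 and 9.59 in ES cells. No 2 of the 4 groups overlapped. The 4 probe sets of Hnrnpa1, an RNA-binding protein, and its copies were 1.93 to 2.13 higher in iPS and 1.70 to 2.08 higher in ES cells. The other two were highest in fibroblasts. Nme2 with Dscaml1, a nucleotide kinase and an unrelated adhesion gene, was 0.95 and 1.17 lower in iPS and ES cells. Cdkn1a, the cell cycle inhibitor p21, listed with 4930567H12Rik, read 12.55, 12.50 and 12.59 in fibroblasts, a mean of 11.99 with an SD of 0.01 in day-1 cells, 10.11, 9.88 and 10.03 in iPS cells, and 9.26, 9.57 and 9.49 in ES cells. Among 134 single-gene relatives, limma called 27 higher and 3 lower at day 1 (3.49% and 4.58% of all probe sets), 63 and 16 in iPS cells (22.2% and 29%), and 67 and 17 in ES cells (23.8% and 31.5%).

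All 7 interferon-inducible probe sets were highest in fibroblasts. Interferons are signals of viral infection, and the genes they induce include GTPases that attack intracellular parasites and sensors of foreign nucleic acid. Of the 7, 5 were at least 1 lower in day-1 cells, 6 in iPS and 6 in ES cells. Gbp2 with Gbp2b, guanylate-binding proteins, read 10.16, 10.42 and 10.43 in fibroblasts, 6.91, 6.63 and 6.72 in day-1 cells, 5.20, 5.09 and 5.14 in iPS cells, and 5.97, 6.67 and 6.44 in ES cells. Fibroblasts were clear of every other array, and ES cells were 1.22 above iPS cells. Tgtp1 with Tgtp2, GTPases of the same defence, read 7.19, 7.51 and 7.84 in fibroblasts, 4.10, 4.04 and 3.85 in day-1 cells, 3.89, 3.96 and 3.50 in iPS cells, and 5.17, 6.0 and 5.06 in ES cells. Ifi204 with Ifi211, DNA sensors, kept more of its level at day 1, with means of 10.87, 9.82, 6.25 and 5.83 in fibroblasts, day-1, iPS and ES cells.

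Oas1a with Oas1g, enzymes that sense double-stranded RNA, were lowest at day 1. The probe set read 8.34, 8.45 and 8.49 in fibroblasts, 6.17, 5.73 and 6.01 in day-1 cells, 7.64, 7.64 and 7.85 in iPS cells, and 7.06, 8.37 and 7.03 in ES cells. ES array 2 reached the fibroblast arrays, and the ES minus fibroblast difference was -0.94 with it and -1.38 without it. Without that array all 7 members were at least 1 lower in ES cells. Ly6c1 with Ly6c2, surface proteins, have 2 probe sets that stayed within 1 at day 1, at -0.70 and -0.55. They were 2.25 and 2.02 lower in iPS cells and 3.51 and 2.89 lower in ES cells.

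The promoters of this family were searched for a motif of known interferon biology. The letters GAAANNGAAA, the core of the element bound by interferon-activated factors, were searched on both strands of each 300-base promoter, overlaps allowed. They occur in 1079 of 27025 genes with a promoter (3.99%), in 7 of 11 interferon-inducible genes of the members (63.6%), in 2 of 6 histocompatibility genes (33.3%), in 2 of 51 histone genes (3.92%) and in 36 of 484 over all members (7.44%). Small families outside immunity had high shares too, 2 of 4 solute carrier and channel genes, 1 of 3 protease genes and 1 of 3 ubiquitin genes. Copies within a pair share descent, so they are not independent, and a match of letters is not a bound site. The windows below lie wholly before the start, and capitals mark the match, read on the other strand where it shows as TTTCNNTTTC.
Gbp2: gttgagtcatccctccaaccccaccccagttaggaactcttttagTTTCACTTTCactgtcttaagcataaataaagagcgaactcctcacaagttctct
Gbp2b: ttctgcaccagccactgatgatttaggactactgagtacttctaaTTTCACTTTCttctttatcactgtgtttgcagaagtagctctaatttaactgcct
Tgtp1: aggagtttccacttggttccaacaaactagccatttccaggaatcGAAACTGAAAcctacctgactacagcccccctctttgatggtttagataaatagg
Tgtp2: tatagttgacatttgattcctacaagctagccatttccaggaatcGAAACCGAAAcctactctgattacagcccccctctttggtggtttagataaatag
Oas1a: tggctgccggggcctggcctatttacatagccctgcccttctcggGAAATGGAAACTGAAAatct
Oas1g: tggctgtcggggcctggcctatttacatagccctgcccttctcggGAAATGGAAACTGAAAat
On GRCm38.p6, from RefSeq, these lie at chr3:142620559-142620658 (+), chr3:142594665-142594764 (+), chr11:48992269-48992368 (-), chr11:49064228-49064327 (-), chr5:120907526-120907590 (-) and chr5:120887614-120887676 (-), in the order printed. In both Oas1 copies 2 matches overlap.

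Single-gene relatives of the interferon family could be tested. Of 48, limma called 29 lower and 0 higher at day 1 (4.58% and 3.49% of all probe sets), with 38 lower and 3 higher at an unadjusted p under 0.05. It called 32 lower and 5 higher in iPS cells (29% and 22.2%), and 33 lower and 4 higher in ES cells (31.5% and 23.8%). Ifit3, which blocks translation of viral RNA with its partners, fell by 6.18 ± 0.16 (SE) at day 1, by 6.86 in iPS and by 6.71 in ES cells (limma, adjusted p = 7.9e-11, 1.3e-12 and 1e-12). It read 11.29, 11.69 and 11.68 in fibroblasts and 5.34, 5.11 and 5.67 in day-1 cells. Ifit1 fell by 5.34, Oasl2 by 4.66 and Ifit3b by 4.60 at day 1. The 5 that rose in iPS cells were Ifi202b (2.27), Trim59 (1.88), Apobec3 (1.68), Ifitm1 (1.49) and Ly6g6e (1.12), the last 4 also in ES cells, with the calls of Ly6g6e ending under 1 of 18 alternative settings. Ifitm1 is a known gene of early germ cells, and Trim59 and Ly6g6e entered by the letters of their names.

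Histocompatibility genes, whose products present peptides to T cells, were highest in fibroblasts at all 5 probe sets, and all 5 were at least 1 lower at day 1. In iPS cells 4 were past that difference and in ES cells 3, or 4 without ES array 2. The widest range was that of H2-T9, H2-T10 and H2-T22, which read 11.37, 11.26 and 11.47 in fibroblasts, 8.82, 8.56 and 8.75 in day-1 cells, 6.46, 6.31 and 5.98 in iPS cells, and 4.89, 6.72 and 5.62 in ES cells. Fibroblasts and day-1 cells each formed a band clear of the rest, and iPS and ES cells overlapped. H2-K1 with H2-D1, the classical class I genes, were lowest at day 1 at one of 2 probe sets, with means of 10.03, 8.26, 8.91 and 9.22 in fibroblasts, day-1, iPS and ES cells. The other had 10.13, 9.11, 8.79 and 8.84. Of 8 single-gene relatives, limma called 1 lower at day 1, H2-Q4, by 2.09 ± 0.11 (SE; adjusted p = 2e-08), where 4.58% of all probe sets were called lower. In iPS and in ES cells it called 2 lower and 1 higher (29% and 22.2% of all in iPS, 31.5% and 23.8% in ES cells), H2-M5, which rose by 2.76 and 2.17.

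Marker lists that could move with these genes were read beside them. The interferon response list, 11 of 15 genes measured, had means of 9.85 to 10.19 in fibroblasts, 6.38 to 6.55 in day-1 cells, 6.04 to 6.17 in iPS cells and 5.86 to 6.59 in ES cells. The macrophage list, 9 of 12 measured, had 7.25 to 7.46, 7.09 to 7.28, 6.19 to 6.30 and 6.16 to 6.24. At day 1 the macrophage genes went both ways. limma called C1qb higher, by 1.48, and Adgre1, Cd14 and Lyz2 lower, with differences of -2.00, -1.54 and -1.03. In the interferon list it called 10 of 11 genes lower. The part of immune cells in the result was not tested. Of 6 lymphocyte genes 2 were measured, with limma calling 0 in any comparison, and 1 or 2 of them were higher at an unadjusted p under 0.05 in each. Of 4 erythroid genes none has a probe set of its own. The shared probe set of the globins Hba-a1 and Hba-a2 had means of 5.50, 5.52, 3.48 and 5.19 in fibroblasts, day-1, iPS and ES cells.

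Small RNAs with their hosts make up 13 members, 6 of them highest in ES cells and 7 lowest in day-1 cells. Mir92-1 with Mir17hg, a host that carries a cluster of growth-promoting miRNAs, read 4.96, 5.07 and 4.86 in fibroblasts, 5.15, 5.09 and 4.91 in day-1 cells, 7.23, 6.99 and 7.42 in iPS cells, and 8.78, 8.70 and 8.34 in ES cells. All ES arrays were above all iPS arrays, by 1.40 in the means. Mir17hg has a probe set of its own, which rose by 1.82 ± 0.18 (SE) in iPS and by 2.87 in ES cells (limma, adjusted p = 5.6e-07 and 5.3e-09), and by 1.04 less in iPS than in ES cells, a call that ended under 2 of 17 alternative settings. Mir22 with Mir22hg, a miRNA of differentiated cells, read 9.82, 9.78 and 9.76 in fibroblasts, 7.93, 8.21 and 8.05 in day-1 cells, 6.65, 6.37 and 6.46 in iPS cells, and 6.56, 7.22 and 6.75 in ES cells. Snord1b with Snord1c, guides for chemical marks on ribosomal RNA, were 2.91 and 3.75 above fibroblasts in iPS and ES cells.

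Imprinted regions supply several of these lists. Mir675, encoded in the H19 transcript, is paired with Supt6 by the annotation. The probe set read 9.48, 10.38 and 10.40 in fibroblasts, 8.43, 8.18 and 8.11 in day-1 cells, 11.02, 10.90 and 10.99 in iPS cells, and 8.81, 9.30 and 8.22 in ES cells. The iPS cells were 2.19 above the ES cells and clear of every other array. The own probe set of Supt6, a transcription elongation factor, differed between the lines by -0.59 ± 0.07 (SE; limma, adjusted p = 2.7e-05) in iPS minus ES cells, opposite to the shared one. Mirg with Mir410, of the imprinted Dlk1-Dio3 region, read 8.33, 8.43 and 8.57 in fibroblasts, 7.59, 7.43 and 7.25 in day-1 cells, 5.98, 6.17 and 6.26 in iPS cells, and 6.81, 6.40 and 6.44 in ES cells. Snurf with Snrpn, a splicing protein gene read from the paternal copy, had means of 7.75 and 7.82 in fibroblasts and day-1 cells, 9.57 in iPS and 10.27 in ES cells. Among the remaining small RNA lists, Mir23b and Mir27b, both with Aopep, were 1.23 and 1.56 lower in day-1 cells than in fibroblasts.

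Ribosomal protein genes, which have many processed pseudogenes, gave 22 members of mixed direction. In day-1 cells 13 were lowest, and in ES cells 11 were highest. Against fibroblasts, 8 were at least 1 higher and 4 lower in iPS cells, and 10 higher and 5 lower in ES cells. Rpl29 with 5 models read 5.96, 7.06 and 6.64 in fibroblasts, 12.07, 12.06 and 12.09 in day-1 cells, 11.42, 11.73 and 11.47 in iPS cells, and 11.66, 11.89 and 11.98 in ES cells. The fibroblasts alone were low, 5.52 under day-1 cells, the widest day-1 difference of any member. The list of Rpl3, Rpl3-ps1, Gm5879, Ralgps2 and Syngr1 read 12.54, 12.65 and 12.67 in fibroblasts, 12.89, 12.89 and 13.13 in day-1 cells, 12.23, 12.16 and 12.23 in iPS cells, and 9.21, 9.27 and 9.43 in ES cells. Rpl11 with Brf2 had the same form, 11.33, 11.49 and 11.28 in iPS and 7.60, 8.62 and 8.15 in ES cells. These 2 were the widest iPS minus ES differences toward lower ES values beside the Pramel list, at 2.91 and 3.25. Rps23 with Gm8624 was lowest at day 1, 2.79 under fibroblasts.

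Of 97 single-gene relatives, which include mitochondrial ribosomal proteins and S6 kinases by the letters of their names, limma called 1 higher and 4 lower at day 1, where 3.49% and 4.58% of all probe sets were called. It called 28 higher and 8 lower in iPS cells (22.2% and 29% of all) and 28 higher and 12 lower in ES cells (23.8% and 31.5%). In both lines the share called higher was somewhat above that of all probe sets, and the share called lower was well below it. The median difference of the 97 was 0.52 in iPS and 0.67 in ES cells, against -0.31 and -0.30 over all probe sets. Rps6ka6, an S6 kinase and not a ribosomal protein, rose most, by 4.42 in iPS and 4.85 in ES cells. Rps13 fell by 3.92 ± 0.46 (SE) in ES cells (limma, adjusted p = 2.8e-06). It read 3.58, 5.50 and 5.80 there and 8.67, 8.57 and 9.40 in fibroblasts. Rpl36 differed by -3.32 ± 0.39 in iPS minus ES cells (limma, adjusted p = 1.8e-05), with 5.98, 3.90 and 4.72 on the iPS arrays. Translation factor and RNA-binding genes gave 10 members, 9 of them highest in ES cells, such as Rbm14 with Gm21992, 1.38 and 2.00 above fibroblasts in iPS and ES cells. Eef1a1, the elongation factor listed with Mir703, was lowest at day 1, by 1.29.

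Paralogs outside the listed families gave 35 members. Bex1 with Bex4, small X-linked proteins of stem and nerve cells, read 4.47, 4.62 and 4.32 in fibroblasts, 4.65, 4.85 and 4.49 in day-1 cells, 9.91, 9.88 and 10.04 in iPS cells, and 10.26, 10.16 and 10.38 in ES cells. Their upstream 250 bases share 241 identical positions, and Bex1 has its own probe set, which rose by 7.52 ± 0.09 (SE) in iPS and 7.63 in ES cells (limma, adjusted p = 1.5e-14 and 1.2e-14). Gprasp1 with Gprasp2, receptor-sorting proteins of the same chromosome, had means of 5.51, 5.44, 8.43 and 8.41 in fibroblasts, day-1, iPS and ES cells. Apol9a with Apol9b, lipoproteins induced by interferon, read 9.24, 8.91 and 9.15 in fibroblasts and 7.22, 7.10 and 7.33 in day-1 cells at one of 2 probe sets, and were 3.02 and 3.23 below fibroblasts in iPS and ES cells. Apol7b with Apol7e stood out in iPS cells, with means of 7.59, 7.58, 9.62 and 7.70. Unc93a with Unc93a2 was 2.16 lower at day 1.

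Members that join different named genes numbered 27, and 12 of them were highest in fibroblasts. C1ra with C1rb, proteases of the complement cascade, read 8.99, 9.67 and 9.68 in fibroblasts, 8.54, 7.99 and 8.17 in day-1 cells, 5.23, 5.37 and 5.54 in iPS cells, and 5.61, 5.68 and 5.30 in ES cells. Rnase4 with Ang, secreted ribonucleases, were 3.34 and 3.84 lower in iPS and ES cells. Tdg, the DNA glycosylase that removes the oxidised cytosines made by Tet enzymes, with its pseudogene Tdg-ps2, had means of 7.97, 8.10, 10.05 and 10.14 in fibroblasts, day-1, iPS and ES cells. A further 40 members pair a gene with unnamed models. Gvin1, an interferon-inducible GTPase, with 4 models read 7.29, 7.10 and 7.25 in fibroblasts and 3.76, 3.93 and 3.61 in day-1 cells. Sp100, a nuclear body protein, with 4 models was 2.26 lower at day 1. Sms, spermine synthase, with Gm8234 was 1.55, 2.89 and 3.51 higher in day-1, iPS and ES cells than in fibroblasts. Loxl2, a collagen crosslinker, with Gm21451 read 9.75, 9.96 and 9.82 in iPS and 7.55, 8.24 and 7.49 in ES cells. The interferon family above was assigned by symbol alone, so Gvin1, Sp100 and Apol9 lie outside its counts.

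Small families completed the set. Of 4 mitochondrial and metabolic members, Acsl3 with Utp14b, a fatty acid activating enzyme, was 2.47 and 2.01 higher in iPS and ES cells. Cox7c with Gm12338 was highest at day 1, at 7.49, 8.11 and 8.78, but spread widely in ES cells, at 3.25, 6.27 and 7.15. The 3 Prl2c genes, placental hormones also called proliferins, had means of 6.45, 7.11, 3.81 and 3.69 in fibroblasts, day-1, iPS and ES cells. Hspa8, a chaperone that hosts Snord14c and Snord14d, was 1.79 and 2.17 higher in iPS and ES cells at the shared probe set. Its own probe set rose by 0.66 and 0.59, short of the minimum of 1 (limma, adjusted p = 9e-05 and 0.00024).

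Some symbols of a shared list also have a probe set of their own, so the shared value could be set beside a test. This was so for 85 genes of 69 members, 106 pairs in all. Where the shared probe set differed by at least 1 in iPS cells against fibroblasts, in 83 pairs, the gene's own was called in the same direction in 43 and in the opposite one in 4. In ES cells it was 38 and 8 of 89, at day 1 it was 16 and 7 of 33, and in iPS minus ES cells 4 and 0 of 7. Over all probe sets, limma called 22.2% higher and 29% lower in iPS cells, and 23.8% and 31.5% in ES cells, against fibroblasts. The shares were 3.49% and 4.58% at day 1, and 4.44% and 2.6% in iPS minus ES cells. Shares of the size seen in iPS and ES cells make some agreement likely beforehand. Pairs share genes and arrays, so these counts are a description. The opposite pairs at day 1 involve H2bc4 with 2 and H3c15 with 5 shared probe sets.

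**Figure D5:**
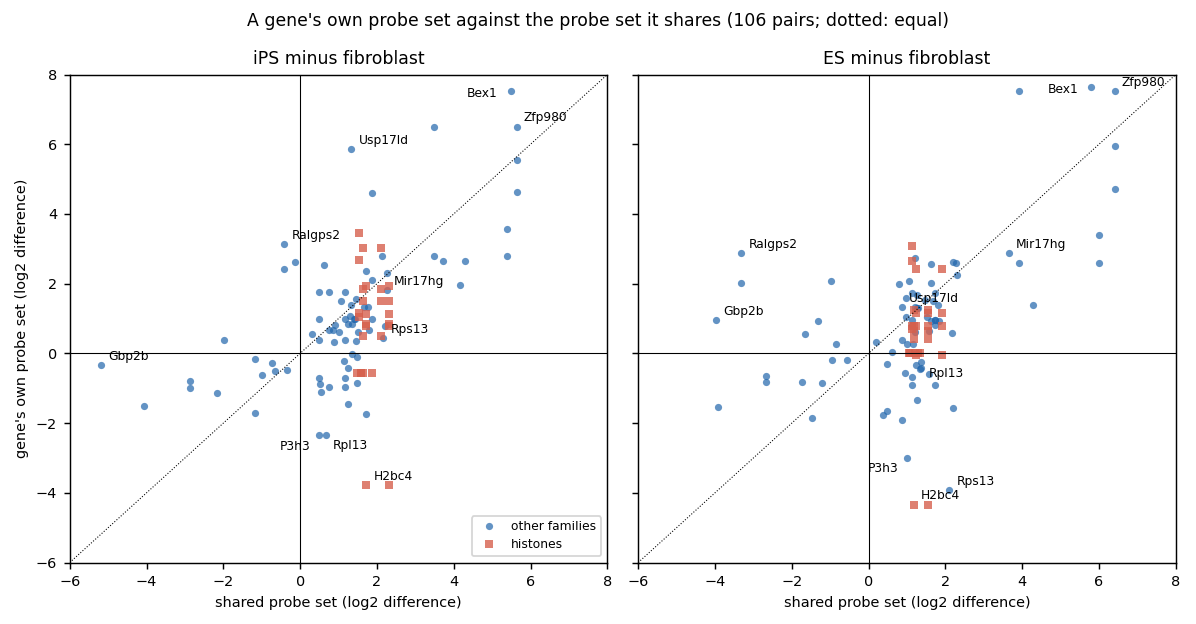
Log2 difference from fibroblasts of a gene's own probe set (y axis) against that of the probe set it shares (x axis), for 106 pairs, in iPS cells (left) and ES cells (right), with a dotted line of equality. Zfp980 lies near the line, at 6.50 against 5.64 in iPS cells, whereas H2bc4 lies far below it, at -3.78, and Rps13 in ES cells at -3.92 against 2.10.

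Single cases show how far a shared value can stand from one of its genes. Usp17ld rose by 5.86 ± 0.18 (SE) in iPS cells at its own probe set (limma, adjusted p = 1.2e-11), and the probe set it shares with 3 kin was 1.33 higher. Gbp2b changed by -0.34 in iPS cells and by 0.95 in ES cells at its own probe set, below the minimum of 1, where the one shared with Gbp2 was 5.19 and 3.98 lower. Ralgps2 rose by 3.13 and 2.88 in iPS and ES cells, and the Rpl3 list it belongs to was 0.41 and 3.32 lower. Rps13 fell by 3.92 in ES cells while its list with Snord14a was 2.10 higher. Pramel20 went with its list: it rose by 2.66 in iPS cells (limma, adjusted p = 6.8e-10) and differed from fibroblasts by 0.26 in ES cells, where the list was 4.29 and 1.15 higher (0.77 in ES cells without ES array 2).

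At the minimum range itself, the members just inside were the lists of Gsta1 and Gsta2, of Zfp646 with Tubb4b, and of Snora43 with Snhg7, at 1.00, 1.01 and 1.01. Just outside were Mir344 with Mir344-2 at 0.99, and Fyb with Phb and Mthfs with Mthfsl at 0.98.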

How the data were processed

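Total RNA, extracted with Trizol and labelled with biotin per the labels' protocols, was hybridised to 12 Affymetrix arrays, 3 in each of 4 groups. The deposited table holds log2 signals of 10360 probe sets from 2.43 to 13.64; how the authors summarised, normalised or filtered them before depositing them is not stated in its header or in the labels. Array medians were 8.25 to 8.29 in fibroblasts and day-1 cells, 7.98 to 8.06 in iPS cells and 7.89 to 7.98 in ES cells. Precision is limited by having 3 arrays per group.

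The platform annotation gives 1 symbol to 9542 probe sets, several to 344 and none to 474. limma 3.58.1 (lmFit and eBayes, R 4.3.3) was fitted to the values as deposited, with a mean per group and 6 contrasts, and checked on simulated data. P-values were adjusted by Benjamini-Hochberg over all 10360, and a call needed an adjusted p under 0.05 and a log2 difference of at least 1 in size. The members, families and marker lists were chosen with earlier results of these data known. Families were assigned by symbol. Named members are up to 4 of a family by range, the 4 highest and lowest of a comparison, the 12 widest, the 3 on either side of the minimum, and those highest where few others are; named relatives are up to 4 calls per family and comparison. Others were named after their values were seen. Promoter identity replaced a planned protein identity, since no protein table was used here. Alternatives were quantile normalization, median centring, another prior, groups fitted in pairs, a replicate block, other minimum ranges, group medians, current RefSeq symbols, and leaving out each array or the lowest 25% of probe sets.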

Additional observations from a re-analysis of the deposited data

How the results depend on the processing

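The 243 members became 244 after quantile normalization (234 of them shared) and 255 after centring (227 shared). They were 240 to 247 with 1 array left out, 275 and 165 at minimum ranges of 0.8 and 1.5, and 166 without the lowest 25% of probe sets. Of 748 member differences past 1, 0 reversed under 14 scaling and leave-one-out settings, but differences of this size were unlikely to reverse. Of 2994 calls among single genes, 2452 were kept under every alternative fit and 542 ended under at least 1, and 0 reversed; the cause was not tested.

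Counts over all 10360 probe sets passed more features without a minimum difference, by construction. They then came to 3169 higher and 2670 lower at day 1, 4385 and 5306 in iPS and 4526 and 5239 in ES cells against fibroblasts. Against day-1 cells they were 4281 and 5255 in iPS and 4408 and 5177 in ES cells, and iPS against ES cells gave 3053 and 2849. Without the lowest 25% of probe sets, fewer were tested, with 295 lower at day 1 and 162 lower in iPS than in ES cells, against 475 and 269 of all. Leaving out 1 array gave 343 to 391 higher and 445 to 539 lower at day 1, and 420 to 531 higher and 257 to 290 lower between iPS and ES cells.

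Same-numbered arrays of different groups deviated from their group means with correlations of -0.177 to 0.083 in 18 pairs, and 2 of the 12 arrays correlated best with their own number. With the number as a replicate block, limma called 363 higher and 474 lower at day 1, against 362 and 475, and 459 higher and 270 lower in iPS against ES cells, against 460 and 269. Levels near the low end of the table, such as 2.63 for the Gm3411 models, have no measured background beside them.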

Other observations

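Of the 344 shared probe sets, 101 stayed under the minimum range of 1 and belong to no comparison above. Families of sensory and epithelial genes lie mostly there. Olfactory, vomeronasal and taste receptor genes gave 9 of their 11 shared probe sets to this set, with a median level of 4.30 and ranges of 0.26 to 0.83. All 3 keratin probe sets stayed under the minimum too, at a median level of 7.31. At the other end, 2 of 18 zinc finger probe sets and 1 of 14 small RNA ones did. Germline and two-cell genes were split, with 13 of 28 under the minimum, at a median level of 5.15.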
